A study of Homo sapiens with 4 samples.

Results

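The ATP-binding cassette (ABC) transporter genes of HPTCs (human proximal tubular cells) were followed on 4 arrays of cells stimulated with IL-1β together with the SGLT2 inhibitor empagliflozin (Empa). The members are the genes whose name in the array design is ABC, a letter from A to G and a number. This gave 46 of 25992 gene names, measured by 70 probes on 115 spots per array. Both cell lines come from the human proximal tubule. HK-2 was immortalised with papillomavirus genes and RPTEC/TERT1 with telomerase. The arrays H1 and H2 are labelled as replicates 1 and 2 of HK-2, and R1 and R2 as those of RPTEC/TERT1, which the methods describe as biological duplicates. All 4 are from cells that went through 24 h of starvation before they received IL-1β at 10 ng/mL and Empa at 500 nM, also for 24 h. Unstimulated cells and cells that received IL-1β without Empa were not analysed here, and no value below is an effect of IL-1β or of Empa. Each group is 1 immortalised line in culture.

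ABC transporters use the energy of ATP to move substrates across membranes, and the letter in the name gives the subfamily. In the proximal tubule they are known mainly as efflux pumps of the apical and basolateral membranes, which carry drugs, conjugates and organic anions out of the cell. Other members export cholesterol and phospholipids, serve mitochondria, lysosomes or peroxisomes, or form the regulatory part of potassium channels. Still others have no membrane part, and some of these act in translation.

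The levels rest on probes of 60 bases, and 3 of the 4 of the pair of efflux pumps that varied most are shown. ABCB1 encodes P-glycoprotein, the multidrug efflux pump of the apical membrane, and ABCC3 encodes MRP3, an exporter of conjugated organic anions. The sequences are those of the deposited files, 5′ to 3′, with positions on GRCh37 as the files give them. Capitals mark the longest run of bases that a probe of another gene on the array also holds. The first ABCB1 probe lies at chr7:87135313-87138603 on the minus strand, a span of 3291 bases for 60 bases of probe, so that it crosses at least 1 intron. The second lies at chr7:87229435-87229494 on the minus strand. The ABCC3 probe shown, the dimmer of 2, lies at chr17:48745220-48745279 on the plus strand, and the other, at chr17:48768701-48768760, is not printed.
ABCB1 A_23_P82523: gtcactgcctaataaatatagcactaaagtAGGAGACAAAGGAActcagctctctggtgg
ABCB1 A_33_P3332414: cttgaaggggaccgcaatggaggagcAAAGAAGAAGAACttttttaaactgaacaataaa
ABCC3 A_33_P3298024: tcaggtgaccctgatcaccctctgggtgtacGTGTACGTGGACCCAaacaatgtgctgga

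These runs are 14, 13 and 15 bases long.

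The level of a gene is the log2 of its processed signal over the 75th percentile of its array, so that 0 is the 75th percentile and a difference of 1 is a doubling. Levels stop at a floor of -5.37. A probe is called well above background where the scanner software marks it so. On the 4 arrays 59.2% to 64.9% of spots were well above background. No member probe was saturated.

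The arrays did not group by their labels. Across the 16473 genes above background on 2 arrays or more, H1 and R2 had a Pearson correlation of 0.983, and H2 and R1 one of 0.975, whereas H1 and H2 had 0.847 and R1 and R2 0.833. These are correlations across genes on shared arrays, and genes are not independent replicates. Which label, if any, is wrong cannot be told from these arrays. Every level is therefore given by array, and every cell line below is the labelled one. Replicate 1 of both lines was scanned on one date and replicate 2 of both on another, and no slide held more than 1 of the arrays, which means that a slide effect and an array effect cannot be told apart.

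Of the 46 ABC genes, 25 (54.3%) were well above background on all 4 arrays, beside 53.0% of all gene names, so the share of measured members was near that of the array as a whole. A further 3 genes were above background on 2 arrays and 4 on 1 array. On no array was this so for 14 genes. In the group of efflux pumps 7 of 11 genes were above background on all arrays and 3 on none. Among the sterol and lipid transporters the numbers were 7 and 6 of 17. All 4 mitochondrial members and all 4 members without a membrane part were above background on every array. ABCB11, the bile salt export pump of hepatocytes, was above background on no array, as were ABCB5 and the pseudogene ABCC13. Of the subunits of potassium channels, ABCC8 was above background on H2 alone and ABCC9 on none.

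**Figure D1:**
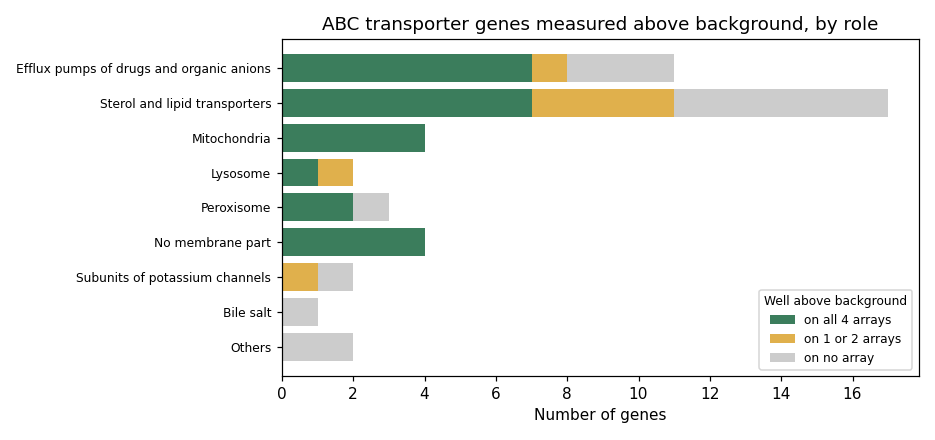
The number of ABC genes (x axis) in each role (y axis) that were well above background on all 4 arrays, on 1 or 2 arrays, or on none, as stacked bars. Mitochondrial genes and genes without a membrane part are above background on all arrays, whereas 6 of the 17 sterol and lipid transporters and 3 of the 11 efflux pumps are above background on none.

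Some members that lie next to each other in the genome were measured alike and others were not. On chr17 the probes of ABCA8, ABCA9, ABCA6, ABCA10 and ABCA5 lie in this order between 66865850 and 67243589. ABCA9 and ABCA5 were above background on all 4 arrays, ABCA10 on 2, and ABCA8 and ABCA6 on none. ABCB1 was above background on all 4 arrays, and its neighbour ABCB4, the phosphatidylcholine floppase of the bile canaliculus, on none. ABCC11 and ABCC12, which lie side by side on chr16, were both above background on no array, whereas both genes were above background on all 4 arrays for the neighbours ABCC1 and ABCC6, ABCC5 and ABCF3, and ABCB8 and ABCF2. The sterol transporters ABCG5 and ABCG8, which work as a heterodimer and lie head to head on chr2, were hardly measured, with ABCG5 above background on R1 alone and ABCG8 on no array.

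Among the efflux pumps, ABCC3 had the widest range of all members. Its level was 2.80 on H1, -0.96 on H2, -1.20 on R1 and 2.77 on R2. One array of each label was high and one low, and the labels overlapped. The signal was 13.5-fold higher on H1 than on H2 and 15.7-fold higher on R2 than on R1. Means were 0.92 ± 2.66 for HK-2 and 0.78 ± 2.81 for RPTEC/TERT1 (SD, n = 2 each), with a difference of 0.14 ± 1.92 (SE; limma, adjusted p = 1). On the first scan date ABCC3 was 4.00 higher on the HK-2 array and on the second the difference was -3.73. Both probes of ABCC3 gave this order. The levels were 3.39, 0.06, -0.19 and 3.34 with one probe and 2.21, -1.97, -2.22 and 2.20 with the other, in the order H1, H2, R1 and R2.

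The level of ABCB1 was -1.43 on H1, -4.34 on H2, -4.22 on R1 and -1.21 on R2. Again 1 array of each label was high. The difference between the labels was -0.17 ± 1.49 (SE; limma, adjusted p = 1), with 2.79 on the first scan date and -3.13 on the second. The probe that crosses the intron stood on the array as 10 spots, and its levels were 0.03, -3.31, -3.07 and -0.44 in the same order of arrays. The SD between its spots was 0.07 to 0.27 within an array, which covers spot error only and not the spread between samples. The other probe lay at the floor on the pair of low arrays, with levels of -2.90 and -1.97 on the others, so that fold values of ABCB1 are lower bounds. H1 was at least 7.51-fold above H2, and R2 at least 8.08-fold above R1.

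ABCC6, an exporter of the hepatocyte and proximal tubule whose loss causes pseudoxanthoma elasticum, ran the other way in the mean of its 4 probes. Its probe for NM_001171 did not do so between the arrays labelled HK-2. The mean level of ABCC6 was -4.36 on H1, -2.81 on H2, -2.66 on R1 and -4.58 on R2. The difference between the labels was 0.03 ± 0.94 (SE; limma, adjusted p = 1), with -1.71 on the first scan date and 1.76 on the second. A probe of ABCC6 lay at the floor on H1 and another on R2, so that the differences within the scan dates are lower bounds in size. Its 4 probes differed in their levels across arrays. The 3 probes listed for the transcript NM_001079528 were all higher on H2 and R1 than on the other arrays, the steepest with levels of -5.37, -1.81, -2.03 and -4.91 in the order of arrays above. The probe for NM_001171, with 10 spots, read -4.05, -4.12, -3.65 and -5.14, with 0.06 between the arrays labelled HK-2 and an SD between its spots of 0.14 to 0.44, which covers spot error only. The pseudogene ABCC6P1, a near copy of the 5′ part of ABCC6, lay at the floor on H1 and R2 and at -3.38 and -3.69 on H2 and R1. Values of ABCC6 by its 3 probes for NM_001079528 are uncertain, since how far this RNA binds them was not tested.

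The remaining pumps varied less. ABCC1, which encodes MRP1, the basolateral exporter of glutathione conjugates, was at -1.37 on H1, -1.95 on H2, -1.75 on R1 and -1.36 on R2. ABCC4, which encodes MRP4, an apical exporter of urate and cyclic nucleotides, was at -1.95, -2.25, -2.46 and -1.73 on the same arrays. The differences between the labels were -0.10 ± 0.48 and 0.00 ± 0.50 (SE; limma, adjusted p = 1 for both). Both genes were, like ABCC3 and ABCB1, highest on H1 and R2, but their ranges were 0.59 and 0.73. ABCC5 and ABCC10 had ranges of 0.76 and 0.75 with the same pair of arrays highest. In all, 6 of the 7 efflux pumps tested were highest on this pair of arrays, beside 42.9% of the 28 members tested and 38.8% of all genes. In the mean of its probes ABCC6 was highest on H2 and R1, beside 33.2% of all genes. For ABCC1, ABCC4, ABCC5 and ABCC10 the order rests on these small ranges, and 1 probe of ABCC10 was highest on H1 and R1.

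The apical pumps ABCC2 (MRP2) and ABCG2 (BCRP) were hardly measured. ABCC2 was well above background on R1 alone, at -4.74 with 1 of its 2 probes, and the other probe was above background nowhere. ABCG2, with 1 probe, was well above background on no array. Neither gene was compared between the lines.

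**Figure D2:**
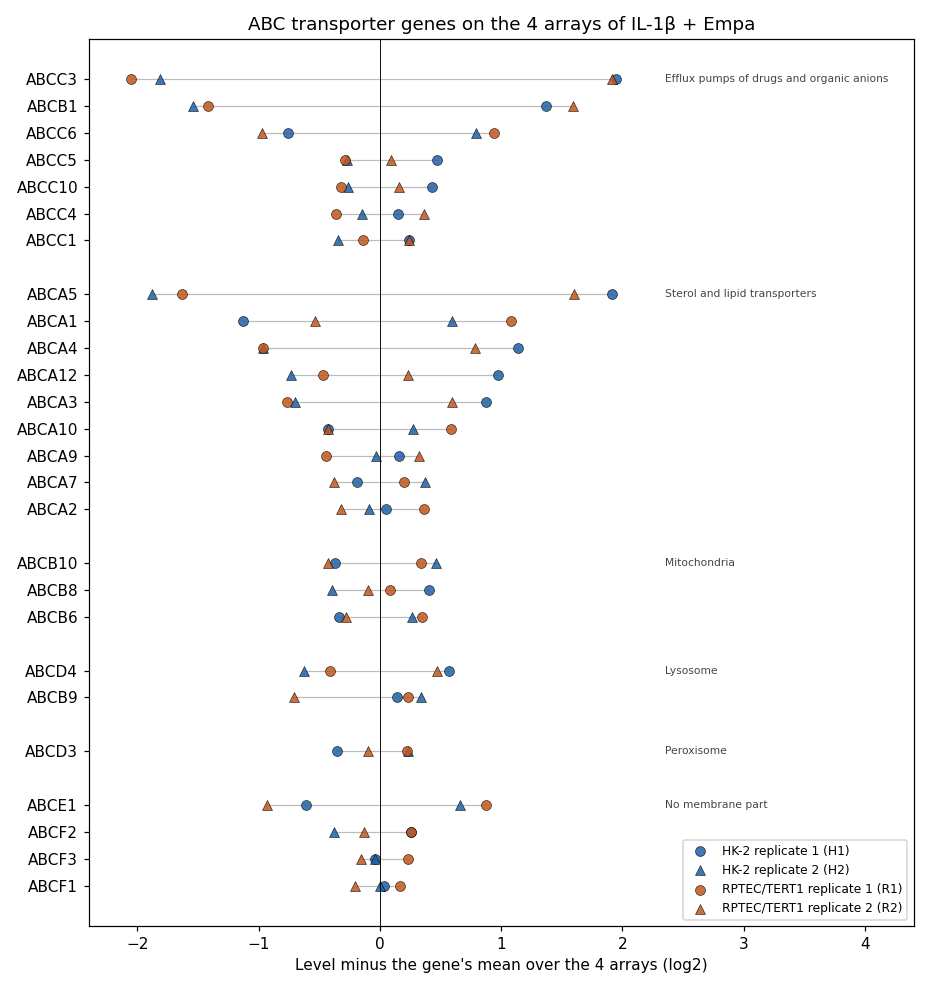
The level of 26 of the 28 ABC genes above background on at least 2 arrays, minus the mean of that gene over the 4 arrays (x axis, log2), with a row per gene grouped by role and a point per array. H1 and R2 lie together at one end for ABCC3, ABCB1 and ABCA5 and at the other end for ABCC6 and ABCE1, whereas ABCF1 and ABCF3 spread by under 0.4.

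Of the sterol and lipid transporters, ABCA5, a member of the group on chr17, varied most. It had a level of -0.64 on H1, -4.43 on H2, -4.19 on R1 and -0.95 on R2. The arrays of each label were thus more than 3 apart, 13.9-fold for HK-2 and 9.42-fold for RPTEC/TERT1, and the labels differed by 0.04 ± 1.76 (SE; limma, adjusted p = 1). Within the scan dates the difference was 3.55 and -3.48.

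ABCA1, which loads cholesterol onto apolipoprotein A-I, was low where ABCA5 was high. The levels were -3.80 on H1, -2.08 on H2, -1.59 on R1 and -3.21 on R2. Its difference between the labels, -0.54 ± 0.91, was the lowest of the members and smaller than its SE (limma, adjusted p = 1), with -2.21 on the first scan date and 1.13 on the second. The brighter of its probes went from -2.26 to 0.09 between the arrays labelled HK-2 and from 0.50 to -2.44 between those labelled RPTEC/TERT1. The dimmer probe moved the same way but by less, from -5.33 to -4.24 and from -3.69 to -3.98. ABCG1, the partner of ABCA1 in cholesterol export, was above background on H2 alone, and its levels of -5.25 to -5.03 lay near the floor.

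ABCA12, the lipid transporter of epidermal lamellar granules, is the member that the study names. Its 1 probe lies at chr2:215796277-215796336 on the minus strand. The level of ABCA12 was 1.20 on H1, -0.51 on H2, -0.24 on R1 and 0.46 on R2, and it was well above background on all of them. The gene was 3.28-fold higher on H1 than on H2, and 1.62-fold higher on R2 than on R1. Means were 0.35 ± 1.21 for HK-2 and 0.11 ± 0.50 for RPTEC/TERT1 (SD, n = 2 each). The difference of 0.24 ± 0.76 (SE; limma, adjusted p = 1) was smaller than the spread within HK-2, and it was 1.45 on the first scan date and -0.97 on the second.

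ABCA3, the phospholipid transporter of lamellar bodies, stood at 1.41 on H1, -0.17 on H2, -0.24 on R1 and 1.12 on R2. The labels differed by 0.18 ± 0.83 (SE; limma, adjusted p = 1), with 1.64 and -1.29 on the scan dates. ABCA4, the retinoid transporter of photoreceptors, was above background on H1, at -3.27, and on R2, at -3.62, and at the floor on the other arrays. It was thus at least 4.28-fold higher on H1 than on H2 and at least 3.36-fold higher on R2 than on R1. With the floor on 2 arrays, the fitted difference between the labels was 0.18 ± 1.02 (SE; limma, adjusted p = 1) and within the scan dates it was 2.10 and -1.75. ABCA2, ABCA7, ABCA9 and ABCA10 ranged over 0.68 to 1.02.

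**Figure D3:**
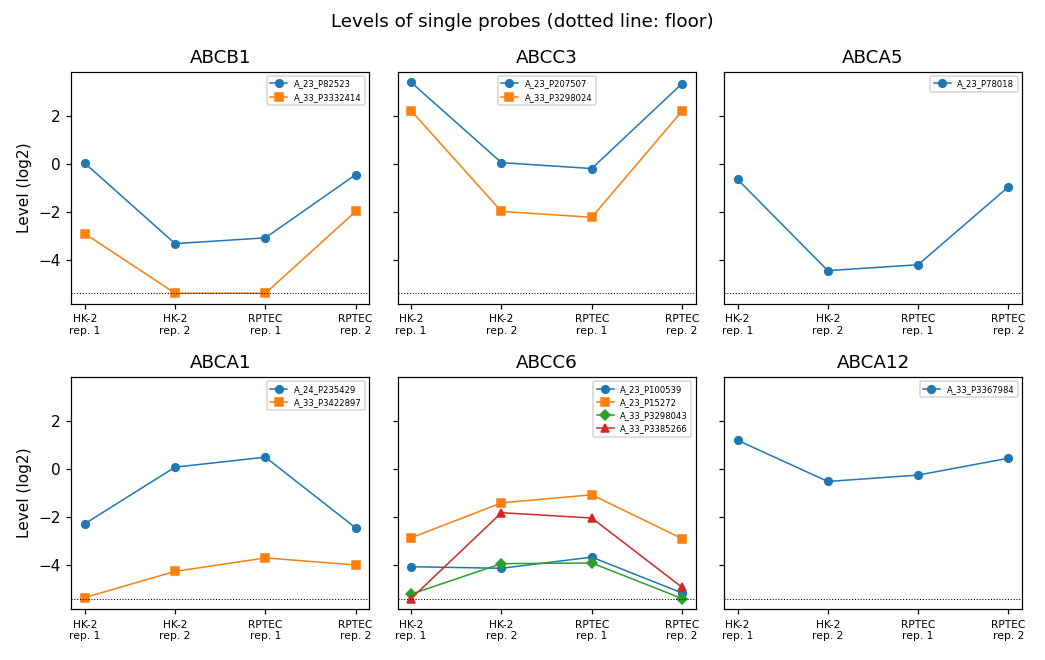
The level of every probe above background (y axis, log2, dotted line at the floor of -5.37) on each of the 4 arrays (x axis, H1, H2, R1 and R2 from left to right) for 6 ABC genes, with lines that only join the points of one probe. Both probes of ABCB1 and of ABCC3 are high on H1 and R2, both probes of ABCA1 are lower on H1 than on H2 and on R2 than on R1, and 1 of the 4 probes of ABCC6 differs from the others on the arrays labelled HK-2.

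The members of the organelles varied over a smaller range than ABCC3, ABCB1 and ABCC6, the pumps with the widest ranges. The other pumps tested, with ranges of 0.59 to 0.76, varied about as little as these members. Ranges over the 4 arrays were 0.69 to 0.90 for ABCB6, ABCB8 and ABCB10, which serve heme and iron-sulfur metabolism and other tasks of mitochondria, and 0.59 for the peroxisomal ABCD3. ABCD4, which takes part in the release of vitamin B12 from lysosomes, was at 1.61 on H1, 0.42 on H2, 0.63 on R1 and 1.51 on R2. The labels differed by -0.05 ± 0.66 in ABCD4 (SE; limma, adjusted p = 1), with 0.98 and -1.09 on the scan dates. The lysosomal peptide transporter ABCB9 lay near the floor and was above background on H2, at -4.30, and R1, at -4.40, alone, so that each label has a measured level on 1 array.

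Among the members without a membrane part, ABCE1, which recycles ribosomes after termination, stood apart from the 3 ABCF genes. ABCE1 was at 0.05 on H1, 1.32 on H2, 1.53 on R1 and -0.28 on R2. It was 2.41-fold higher on H2 than on H1 and 3.51-fold higher on R1 than on R2, and its 2 probes were both higher on H2 than on H1 and on R1 than on R2, although the highest array was R1 with one and H2 with the other. The difference between the labels was 0.06 ± 0.86 (SE; limma, adjusted p = 1), with -1.48 and 1.59 on the scan dates. ABCF1, ABCF2 and ABCF3 had ranges of 0.37, 0.64 and 0.39.

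The comparison of HK-2 with RPTEC/TERT1, under the same stimulation, was made by label. Each label held an array of the pair H1 and R2 and an array of the pair H2 and R1, which correlated most. The comparison therefore cannot answer whether the proximal tubular lines differ in these genes. None of the 28 members tested passed limma's adjusted p of 0.05, beside 0.0% of all genes. At an unadjusted p of 0.05 it was also none of the 28, beside 0.14% (23 genes) of all. The lowest unadjusted p of a member was 0.42. In no member did all arrays of one label lie above all arrays of the other, beside 7.18% of all genes. The differences ran from -0.54 to 0.47, the upper end being ABCB9 with its arrays below background, with a median of 0.04, beside a median of 0.02 over all genes, and 18 were above 0 and 10 below. Their SEs were 0.44 to 1.92. By role, the median difference was 0.03 for the efflux pumps, 0.12 for the sterol and lipid transporters, 0.05 for mitochondria, 0.21 for lysosomes, 0.04 for peroxisomes and -0.02 for the members without a membrane part.

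Between pairs of arrays, the members and all genes were described side by side without a test of the difference. Of the 28 members, 10 were more than 1 apart between the 2 arrays labelled HK-2, beside 34.0% of all genes, and 9 between the 2 labelled RPTEC/TERT1, beside 40.4%. Between arrays of one scan date it was 10 for replicate 1 of both lines, beside 36.0%, and 10 for replicate 2, beside 33.7%. Between H1 and R2 no member was more than 1 apart, beside 4.9% of all genes, and among members above background on all arrays the largest difference was 0.75, in ABCA12. Between H2 and R1 it was again none, beside 6.79%, with 0.64 as the largest difference, in ABCF2. The median absolute difference of the members was 0.25 and 0.21 for these pairs and 0.64 to 0.71 for the other 4. With the deposited log2 values in place of these levels it was 0.56 for H1 and R2, more than the 0.42 for H2 and R2. One array against another allows no test.

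**Figure D4:**
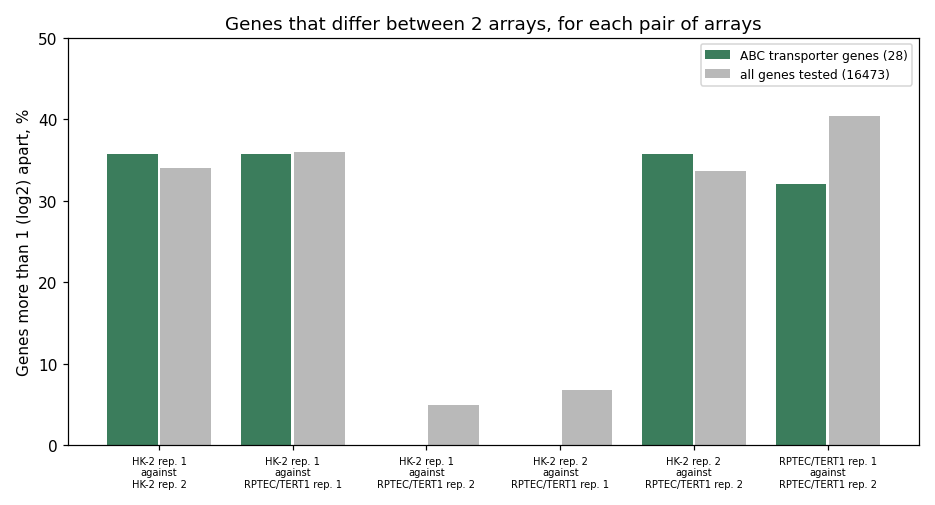
The percent of genes more than 1 apart on the log2 scale (y axis) for each of the 6 pairs of arrays (x axis), for the 28 ABC genes tested and for all 16473 genes tested. No ABC gene is that far apart for H1 (replicate 1 of HK-2) against R2 (replicate 2 of RPTEC/TERT1) or for H2 against R1, and 9 or 10 are for each of the other pairs.

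The pair of arrays with the highest levels was H1 and R2 in 12 of the 28 members (42.9%), beside 38.8% of all genes. In 10 members (35.7%) it was H2 and R1, beside 33.2%. Replicate 1 of both lines was highest in 5 (17.9%), beside 9.76%, and replicate 2 of both in 1 (3.57%), beside 10.8%. For the pair H1 and R2 and the pair H2 and R1 the shares of the members lay near those of all genes. The 12 members were ABCA3, ABCA4, ABCA5, ABCA9, ABCA12, ABCB1, ABCC1, ABCC3, ABCC4, ABCC5, ABCC10 and ABCD4, and the 10 were ABCA1, ABCA7, ABCA10, ABCB6, ABCB9, ABCB10, ABCC6, ABCD3, ABCE1 and ABCF3.

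Only 12 members had several probes above background, and in 8 of them all probes differed in the same direction between the arrays of each label. ABCA2, ABCC6 and ABCC10 were among the exceptions.

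The summed signal of a list of proximal tubule markers was higher on the arrays on which ABCC3, ABCB1 and ABCA5 were high. Of 18 such genes, 11 were above background on all arrays, 4 on some and 3 (CUBN, SLC22A6 and HNF4A) on none. Their summed signal, in units of the 75th percentile of the array, was 68.2 on H1, 13.8 on H2, 17.2 on R1 and 65.9 on R2. CDH16, the kidney cadherin, was at 4.83, -0.55, -0.55 and 4.97 on these arrays. PAX8 was at 4.13, 1.61, 2.79 and 3.73, and KRT18 at 3.27, 2.42, 2.12 and 3.40. CDH16, PAX8 and KRT18 made up most of the sum on H1 and R2, so the sum does not show how proximal tubular the cells were. ANPEP, a brush border peptidase, was above background on H1 and R2 alone. Other markers of the list did not follow the sum. SLC5A2, which encodes SGLT2, was at -3.84, -3.08, -3.57 and -3.05. The brush border enzymes MME (-4.45, -4.07, -3.59 and -4.42) and GGT1 (-0.88, -0.56, -0.35 and -0.65) were higher on H2 and R1, and LRP2, which encodes megalin, was highest on H2 (-3.34, -1.72, -2.77 and -3.06). Markers of other nephron segments summed to 1.43, 0.366, 0.438 and 1.37, with 3 of 6 above background on all arrays and 2 (SLC12A3 and AQP2) on none. The largest part of this sum on H1 and R2 was SLC12A1, above background on these arrays alone, at -0.51 and -0.10. Endothelial markers summed to 0.395, 0.267, 0.196 and 0.254, with VWF and KDR above background nowhere. Fibroblast markers summed to 0.105, 0.749, 0.646 and 0.103, most of it DCN on H2 and R1, with COL3A1 and PDGFRB above background nowhere. Leukocyte markers summed to 0.936, 1.42, 1.87 and 0.876, mainly CD68, which other cells also express. The part of these differences in the levels of the ABC genes was not tested. In such bulk samples fewer cells of a type and less RNA per cell cannot be told apart.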

How the data were processed

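Gene expression was measured on 4 Agilent arrays of HPTCs given IL-1β and Empa. Groups and replicate numbers were taken from the sample labels. The labels name the RNeasy kit and the methods another kit for RNA isolation. The authors deposited spot intensities from Agilent Feature Extraction 9.5.3.1, read in 1 channel, with the background subtracted within the array and no scaling between arrays. A series table that the authors deposited holds log2 values for these arrays, whose scaling and centring are not given in the sources used here. These run in the same direction (Spearman 0.999 with normexp values of the same arrays), had medians of 8.31, 7.04, 6.67 and 6.65 and served only as an alternative.

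The processed signal was used. After removal of control spots and of spots with an outlier mark, each signal was expressed relative to its array's 75th percentile (393 to 748), set to a floor of 0.0242 (a level of -5.37) and taken to log2. Spots of a probe were averaged, and for a gene the mean was taken over those of its probes that rose well above background on 1 array or more, or over every probe if none did. The labelled cell lines were compared by limma 3.58.1 (R 4.3.3) for the 16473 genes that passed this mark on 2 arrays or more, with Benjamini-Hochberg adjustment at 0.05, and a replicate block as an alternative. On simulated data for this comparison, with 200 of 16473 genes changed by 2 on the log2 scale around a spread of 0.2, 200 of the 200 were recovered with 6 false calls. Within a label the real arrays spread more than this. P-values rest on the spread between 2 arrays per label, which limma moderates toward the spread over all genes tested. They cover no other variation, and the number of arrays limits the precision.

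RefSeq's table for GRCh38.p14, used for names only, lists all 46 symbols, and it holds 66 of 70 probe transcripts, 65 under the same symbol. Probe positions are those of the files (GRCh37). Members in full are ABCA12, named by the study, the efflux pumps ABCB1, ABCC1, ABCC2, ABCC3, ABCC4 and ABCG2, the cholesterol exporters ABCA1 and ABCG1, and the 10 members with the largest range among those above background on at least 2 arrays. The members, the gene lists by role and the marker lists were chosen with earlier results of these data known. Same-numbered arrays deviated from the means of their labels with a correlation of -0.810 across genes (-0.949 over the members), so the numbers were not taken to pair the arrays. Values of some members are not reported here, and these members enter the counts and medians only.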

Additional observations from a re-analysis of the deposited data

How the results depend on the processing

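No ABC gene and no other gene passed an adjusted p of 0.05 under any alternative, leaving out each array included; at an unadjusted p of 0.05 limma gave 3 to 241 genes and none of the members. The fit with the replicate number as a replicate block called 0 genes and gave 5 at an unadjusted p of 0.05, and a crossed pairing, chosen after seeing the data, called 0 and gave 183. The numbers of genes above background did not change (25). Directions of differences near 0 were not stable. With the deposited values, which move the median of all genes to 0.21, ABCA1 turned to 0.38, ABCB1 to 0.072, ABCC1 to 0.039 and ABCC3 to -0.082. With the brightest probe, ABCB1 turned to 0.12, ABCC6 to -0.15 and ABCE1 to -0.088. Normexp with quantile normalization turned ABCC6 to -0.014 and ABCD4 to 0.034, and quantile normalization alone turned ABCC6 to -0.0042. Leaving out one array at a time turned the sign of these 12 genes: ABCA1 from -1.40 to 0.32, ABCA3 from -0.61 to 0.96, ABCA4 from -0.87 to 1.22, ABCA5 from -1.86 to 1.93, ABCA12 from -0.62 to 1.10, ABCB1 from -1.68 to 1.33, ABCC1 from -0.40 to 0.19, ABCC3 from -1.85 to 2.12, ABCC4 from -0.36 to 0.37, ABCC6 from -0.93 to 0.99, ABCD4 from -0.65 to 0.54 and ABCE1 from -0.85 to 0.96. The median difference of the members ran from -0.10 to 0.19 without one array and from 0.00 to 0.20 otherwise. The median absolute difference between H1 and R2 ran from 0.11 to 0.56, between H2 and R1 from 0.11 to 0.28, and over the other pairs from 0.28 to 1.11. With the deposited values the order of the pairs changed: H1 and R2 were 0.56 apart, farther than H2 and R2 (0.42) and R1 and R2 (0.46). The cause of these changes was not tested. Members near the floor, ABCA4, ABCA10, ABCB9 and ABCG1 among them, have only bounds where they are not above background.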
